A study of Mus musculus with 6 samples.

Results

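Laminins are the heterotrimeric glycoproteins that form the laminin sheet of basement membranes, and integrins are the alpha and beta heterodimers by which cells hold on to laminin and other matrix proteins. Members were chosen by a rule on gene names, with earlier results of these data known. The rule took every probe set whose single gene symbol in the platform annotation begins with Lama, Lamb, Lamc, Itga or Itgb and a number. It also took Itgae, Itgal, Itgam, Itgav and Itgax, and left out the Itgb1bp genes. This gave 81 probe sets for 36 genes, of 45101 probe sets and 18194 named genes on the array. Of these, 76 probe sets measure 35 laminin chains and integrin subunits. The other 5 measure Itgb3bp, which the naming rule takes in but which encodes a centromere protein and no integrin subunit.

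The arrays measured pancreatic islets, the hormone-secreting cell clusters of the pancreas, which had been freed by collagenase digestion. One group was islets of mice that were not pregnant (labelled 0 dpc, days post coitum; 3 arrays) and the other islets of mice pregnant for 12.5 days (12.5 dpc; 3 arrays). The study asked what makes islets grow in pregnancy. The labels name no strain, age or genotype, do not say whether animals were pooled, and do not tie each array to an animal of its own. The p-values here therefore rest on the spread between arrays alone, and that spread may be technical.

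In an islet the laminin sheet is laid down mainly by the vessels that run through it, and endocrine cells touch that sheet with integrins on their surface. Each laminin holds 1 alpha, 1 beta and 1 gamma chain, and the alpha chain carries the site that integrins bind. The products of Itga3, Itga6 and Itga7 are the laminin-binding alpha subunits. They pair with the product of Itgb1, the partner shared by most integrins, and that of Itga6 can also pair with the product of Itgb4. Collagenase digestion acts on proteins of the islet surface and matrix, and the arrays measured RNA. An effect of the digestion on the RNA values was not tested.

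In all, 5 member genes had a called probe set, where called means a limma adjusted p under 0.05 over all probe sets tested. The promoters of those found in the RefSeq table (GRCm38.p6) are shown as the regulatory sequence nearest to each start. Lama5, Lamb1, Lama2 and Itgb8 matched the table, and Itga6 did not. Each line gives the 250 bases before the start, 5′ to 3′ on the gene's own strand, with capitals for a GC box (GGGCGG) or a CCAAT box (CCAAT) read on either strand. No match of these motifs overlapped another.
Lama5: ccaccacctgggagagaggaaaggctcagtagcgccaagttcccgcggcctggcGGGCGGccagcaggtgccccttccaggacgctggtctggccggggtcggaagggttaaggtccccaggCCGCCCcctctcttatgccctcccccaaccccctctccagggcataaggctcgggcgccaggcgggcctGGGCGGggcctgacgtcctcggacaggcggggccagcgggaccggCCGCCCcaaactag
Lamb1: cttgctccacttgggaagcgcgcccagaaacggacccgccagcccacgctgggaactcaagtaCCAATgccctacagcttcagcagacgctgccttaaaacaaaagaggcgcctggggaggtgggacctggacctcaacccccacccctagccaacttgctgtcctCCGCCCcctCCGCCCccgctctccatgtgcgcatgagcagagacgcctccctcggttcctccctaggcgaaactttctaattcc
Lama2: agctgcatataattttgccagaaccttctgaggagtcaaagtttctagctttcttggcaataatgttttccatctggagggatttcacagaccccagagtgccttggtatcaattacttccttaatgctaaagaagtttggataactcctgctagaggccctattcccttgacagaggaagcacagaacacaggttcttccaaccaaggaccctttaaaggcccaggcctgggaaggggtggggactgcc
Itgb8: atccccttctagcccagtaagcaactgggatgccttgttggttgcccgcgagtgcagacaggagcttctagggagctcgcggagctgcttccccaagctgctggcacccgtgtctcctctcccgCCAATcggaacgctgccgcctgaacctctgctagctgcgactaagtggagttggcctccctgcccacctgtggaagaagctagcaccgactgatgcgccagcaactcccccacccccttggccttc
The Lama5 window lies at chr2:180225860-180226109 on the minus strand and the Lamb1 window at chr12:31265043-31265292 on the plus strand. Those of Lama2 and Itgb8 lie at chr10:27616943-27617192 and chr12:119238277-119238526, both on the minus strand. The upstream window of Lama5 held 4 GC boxes and that of Lamb1 held 2. Lama2 and Itgb8 held 0, and a GC box stood in 32.7% of the 32851 promoter windows of the table. A CCAAT box stood once in the Lamb1 and once in the Itgb8 window, and in 33.8% of all windows. The TATA box (TATAAA, in 12.4% of windows) and the STAT motif (TTCNNNGAA, in 7.02%), also read on both strands, had 0 matches in these 4 windows. The share of G and C was 72.4% for Lama5, 62.4% for Itgb8, 62.0% for Lamb1 and 47.2% for Lama2, against a median of 52.4% over all windows. These letters describe the sequence and show no binding.

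Signals are MAS5 intensities on a linear scale, and log2 differences are pregnant minus non-pregnant values of log2(signal + 16), with limma's standard error (SE). Every array had the same 2% trimmed mean of 500.003. Marker lists were chosen with earlier results of these data known. The beta cell list had a summed signal of 170931 to 182316 on the non-pregnant and 178953 to 181203 on the pregnant arrays. Among its 9 tested genes 1 rose (Pcsk1, a prohormone convertase, by 0.94) and 2 fell (Slc2a2 and Slc30a8, by 0.25 and 0.29). Over all genes tested, 6.1% rose and 5.79% fell. The list of alpha, delta and PP cells, other endocrine cells, had 0 of 7 tested genes higher and 2 lower. These were Ghrl and Irx1, by 1.14 and 0.40, and all 7 differences were negative (median -0.09). Its summed signal was 144533 to 156157 on the non-pregnant and 141592 to 152237 on the pregnant arrays. Acinar markers, of exocrine cells, were the list that differed most in level between the groups: 17 of its 19 tested genes fell and 0 rose (summed signal 213080 to 404061 against 124231 to 202909). As a sign of RNA quality, the 3′ over 5′ signal ratio of beta actin was 1.56 to 1.63 on non-pregnant and 1.63 to 1.66 on pregnant arrays, without overlap. For Gapdh it was 0.669 to 0.711 and 0.687 to 0.725. In bulk islet RNA, fewer cells of a type and less RNA per cell cannot be told apart.

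Of the 81 probe sets, 43 (27 genes) were bright enough to be tested. In pregnancy 4 rose, for the laminin receptor subunit Itga6 and the laminin chains Lama5 and Lamb1, and 2 fell, for the laminin chain Lama2 and the integrin beta subunit Itgb8. The 4 that rose were 9.30% of those tested, beside 4.79% of all 27022 probe sets tested, and the 2 that fell were 4.65%, beside 4.78%. In either direction 6 of 43 were called (14.0%), beside 9.57% of all. The median log2 difference of the 43 was -0.02, and that of all probe sets tested was -0.045. In 9 of the 43 (20.9%) the groups did not overlap, against 27.7% of all probe sets tested. Of these, all pregnant arrays were higher in 6 (beside 11.6% of all) and lower in 3 (beside 16.1%). An unadjusted p under 0.05 was reached by 7 of the 43, beside 22.9% of all probe sets tested. Without the variance trend in the fit 1 member rose and 0 fell, beside 1.45% and 0.777% of all, and with the acinar covariate 0 were called, beside 1.35% higher and 0.655% lower. The covariate reduced the differences of some called members and not of others, and widened their errors, as given with each gene. With each array centred on its median 4 rose and 0 fell, beside 5.29% and 2.16%.

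**Figure D1:**
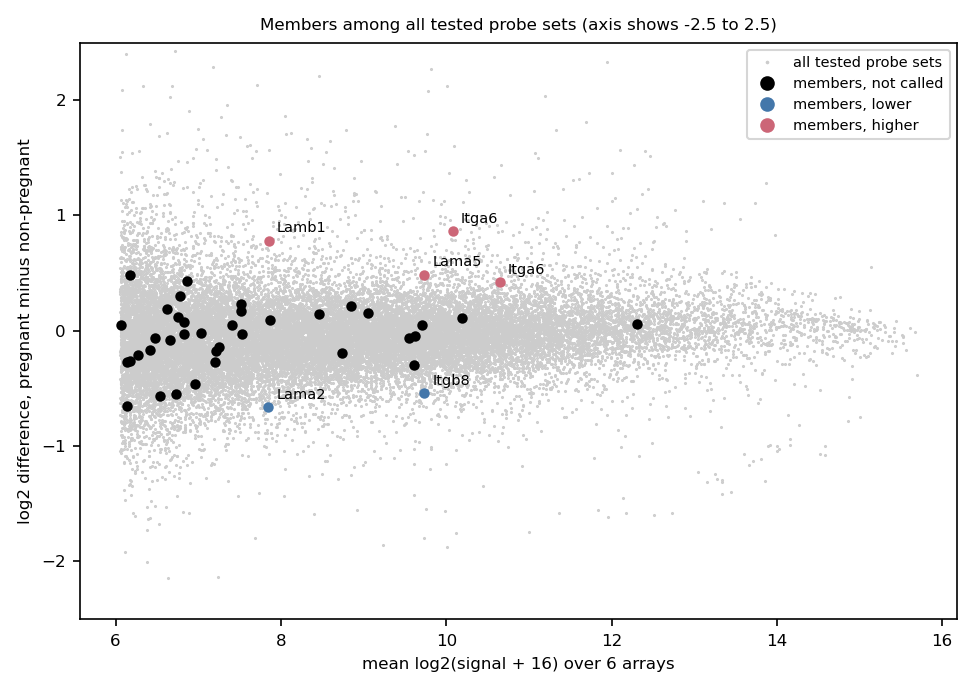
Log2 difference (vertical axis, pregnant minus non-pregnant) against mean log2(signal + 16) over the 6 arrays (horizontal axis) for all 27022 probe sets tested (grey) and the 43 member probe sets (large points: red higher, blue lower, black not called). The members lie within the grey cloud, with the 4 called higher between 0.42 and 0.86 and the 2 called lower at -0.54 and -0.66. A further 15 probe sets lie outside the plotted range of 2.5 in either direction.

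Among the laminin alpha chains, Lama5 rose and Lama2 fell. Lama5 encodes the alpha chain of the most widespread laminin of adult basement membranes, including those of vessels and epithelia. Its bright probe set (1427009_at) gave signals of 553, 819 and 771 on the non-pregnant arrays (replicates 1 to 3, as in every such sentence) and 1024, 1059 and 902 on the pregnant arrays. All pregnant arrays lay above all non-pregnant ones, and non-pregnant replicate 1 was the lowest. The means were 714 ± 142 (SD, n = 3) and 995 ± 82.7 (n = 3). The ratio was 1.39 and limma gave 0.49 ± 0.14 on the log2 scale (adjusted p = 0.044). A dimmer Lama5 probe set (1427010_s_at) ranged from 3.8 to 125 on the non-pregnant arrays alone and was not called. The Lama5 call is close to the threshold: it held without non-pregnant replicate 2 (adjusted p = 0.027) but with any other single array left out the adjusted p was 0.054 to 0.14. It was 0.084 with no filter on dim probe sets and 0.34 with the tested Lama5 probe sets averaged (0.49 ± 0.29). When the fit included a covariate for acinar content (each array's median over the acinar list), the Lama5 difference was 0.12 ± 0.21 (adjusted p = 0.85). The acinar level was 1.01, -0.12 and 0.94 on the non-pregnant and -0.90, -0.64 and -0.20 on the pregnant arrays. The groups do not overlap in it, so this fit cannot tell acinar content from pregnancy. The part of acinar cells in the Lama5 result was not tested.

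Lama2 encodes the alpha chain of muscle and nerve laminin, the chain that is missing in a congenital muscular dystrophy. Its single probe set read 258.5, 298 and 266 without pregnancy and 138, 201 and 167 in pregnancy. The highest pregnant array thus stayed below the lowest non-pregnant one. The mean went from 274 ± 20.9 to 169 ± 31.7, a ratio of 0.616. On the log2 scale the difference was -0.66 ± 0.17 (limma adjusted p = 0.032). Leaving out any 1 array other than pregnant replicate 2 raised the adjusted p to 0.058 to 0.12, and with each array centred on its median it was 0.062. It was 0.074 with no filter on dim probe sets. With the acinar covariate the difference was -0.73 ± 0.31, no smaller but with a wider error, and was not called (adjusted p = 0.31). Of 14 tested markers of stellate cells, pericytes and fibroblasts, 3 fell and 0 rose, beside 5.79% of all genes lower. The differences were negative in 13 of the 14 (median -0.46), Des being the exception with 0.33, and their summed signal was 15666 to 15904 without and 10878 to 14034 in pregnancy. The matrix proteoglycan Dcn fell by 1.20 ± 0.14 (limma adjusted p = 2.8e-04). Of the 4 tested Schwann cell markers, 0 were called in limma (unadjusted p of 0.066 to 0.76), beside 11.9% of all genes. Their median was -0.28, and their summed signal was 1591 to 1945 without and 1725 to 1815 in pregnancy. Among them Sox10 read 146 to 167 without and 107 to 123 in pregnancy, and S100b 74.2 to 91.6 and 46.1 to 62, without overlap. Such a full separation with all pregnant arrays lower was seen in 16.1% of all probe sets tested. Mbp, the brightest, overlapped and was on average higher in pregnancy (1284 to 1553 and 1417 to 1570), and Foxd3 overlapped (19.8 to 107 and 18.2 to 82.4). The part of stellate and Schwann cells in the Lama2 result was not tested.

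The other alpha chains were not called. Lama4, the alpha chain typical of endothelial basement membranes, read 234, 139 and 280 and, in pregnancy, 181, 285 and 217, so the groups overlapped widely (log2 difference 0.09 ± 0.24, limma adjusted p = 0.88). Its 95% interval, -0.44 to 0.62, leaves room for a change of either sign. Lama3, an alpha chain of epithelial basement membranes, read 161, 159 and 193 against 165, 174 and 163 (-0.02 ± 0.17, limma adjusted p = 0.96), and its sign turned with quantile normalization, median centring or the acinar covariate. Lama1, the main alpha chain of the early embryo, gave 1.8 to 7.4 on all 6 arrays. That is within the 1.1 to 32.3 spanned by the probe sets of a bacterial control (TrpnX). The single Lama1 probe set thus gave no signal above that control, and whether the transcript was present was not tested otherwise.

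Lamb1, the beta chain found with Lama5 in many basement membranes, rose in 1 of its 2 tested probe sets. In probe set 1424113_at the non-pregnant arrays read 150.1, 171 and 161 and the pregnant arrays 232, 297 and 341. The mean went from 160.5 ± 10.3 to 290.1 ± 54.5, a ratio of 1.81. On the log2 scale the difference was 0.78 ± 0.17 (limma adjusted p = 0.015). The brighter probe set 1424114_s_at read 468, 504 and 489 against 571, 505 and 554. There too every pregnant array was above every non-pregnant one, but by little (0.15 ± 0.11, limma adjusted p = 0.45). The log2 ratio of the first to the second probe set went from a mean of -1.51 to -0.88, a shift of 0.63, with no overlap between groups. With the tested probe sets of the gene averaged, Lamb1 had a log2 difference of 0.47 (limma adjusted p = 0.020). With the acinar covariate the difference of the called probe set was 0.88 ± 0.32, as large as without it but with a wider error, and was not called (adjusted p = 0.21). Without pregnant replicate 2 or pregnant replicate 3 the called probe set had adjusted p-values of 0.060 and 0.070.

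Lamb2, the beta chain of vessel, muscle and kidney filter laminins, read 143, 155 and 97.9 against 69.2, 80.9 and 127.5. The groups overlapped through pregnant replicate 3 and non-pregnant replicate 3 (-0.46 ± 0.27, limma adjusted p = 0.34). Lamc1, the gamma chain of nearly all laminins, read 157, 162 and 151 against 150.8, 181 and 209.9 in its brighter probe set (0.18 ± 0.18, limma adjusted p = 0.63). In the other it read 125, 183.5 and 122.5 against 104, 133 and 134.5, on average lower in pregnancy, and neither was called. The 95% interval of the brighter probe set, -0.22 to 0.57, includes both no change and a rise as large as that of Lama5. Lamb3 and Lamc3 were too dim to be tested.

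**Figure D2:**
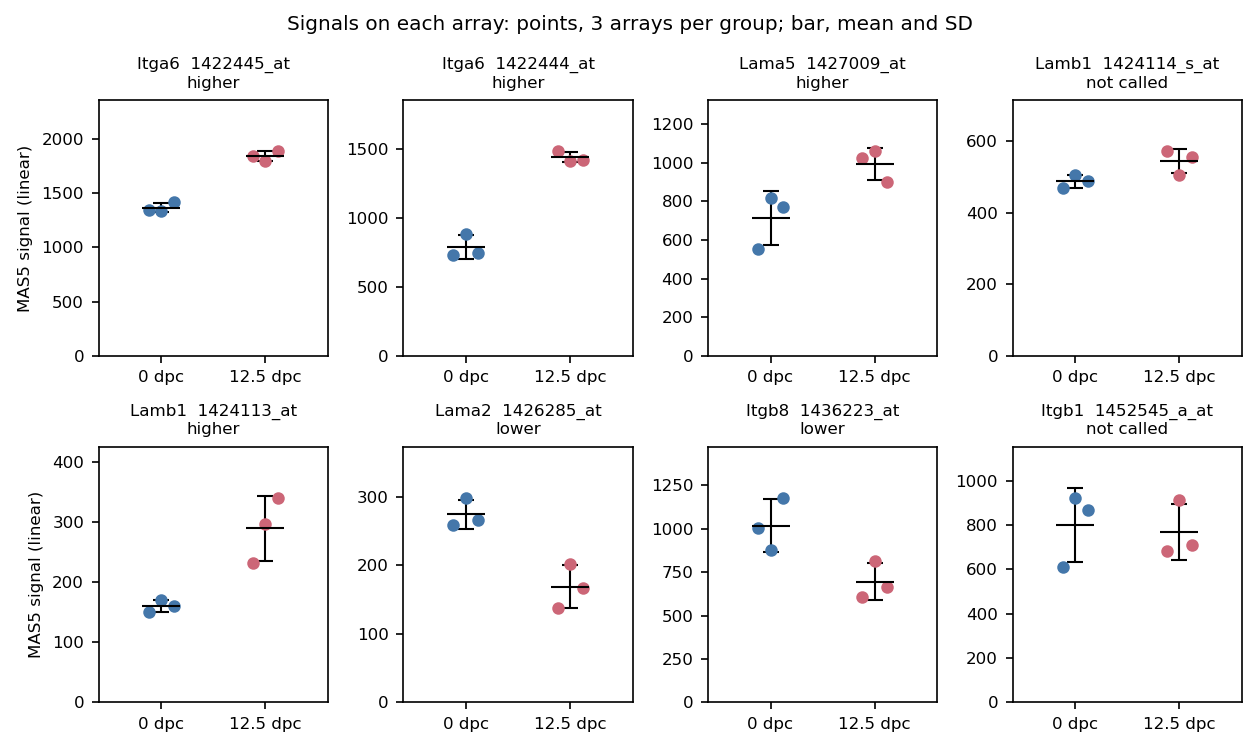
MAS5 signals (vertical axes, linear, from 0) on each array at 0 and 12.5 dpc (horizontal axes) for the 6 called probe sets, the second Lamb1 probe set and the brightest Itgb1 probe set. Points are single arrays, 3 per group, and bars give the mean and SD. The called panels show groups that do not overlap, as between 729 to 887 and 1417 to 1484 for Itga6 1422444_at, while the Itgb1 groups overlap.

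Among the laminin receptors, Itga6 rose in both of its probe sets. Its product is the alpha subunit of the main laminin-binding integrins of epithelial cells, and it is also found on endothelial cells. Probe set 1422444_at read 729, 887 and 746 on the non-pregnant arrays and 1484, 1417 and 1423 on the pregnant arrays. The mean went from 787 ± 86.4 to 1441 ± 36.9, a ratio of 1.83. On the log2 scale the difference was 0.86 ± 0.09 (limma adjusted p = 1.3e-04). Probe set 1422445_at read 1345, 1338 and 1415 against 1838, 1794 and 1883. Its mean went from 1366 ± 42.7 to 1838 ± 44.6, a ratio of 1.35. On the log2 scale the difference was 0.42 ± 0.07 (limma adjusted p = 0.0030). In both, the arrays of a group lay close together and the groups were far apart.

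The Itga6 calls held with any 1 array left out, with adjusted p-values up to 0.0019 for 1422444_at and up to 0.019 for 1422445_at. The log2 ratio of 1422444_at to 1422445_at was -0.87, -0.59 and -0.91 on the non-pregnant arrays and -0.31, -0.34 and -0.40 on the pregnant ones, a shift of 0.44. This ratio and that of Lamb1 were chosen after their values were seen and are given as a description. Without the variance trend 1422444_at passed (adjusted p = 0.021) and 1422445_at did not (0.057). With the acinar covariate the differences were 0.63 and 0.47, with adjusted p-values of 0.053 and 0.096. Of the 6 called members, 1422444_at was the 1 that passed without the variance trend, and 0 passed with the covariate. Under the covariate the differences of Itga6 1422445_at, Lamb1 and Lama2 were no smaller, and those of Itga6 1422444_at, Lama5 and Itgb8 were smaller. All had wider errors.

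Itgb1, the partner of Itga6, Itga3 and Itga7 products, was not called in any of its 3 tested probe sets (unadjusted limma p of 0.19 to 0.77). The brightest (1452545_a_at) read 609, 922 and 867 against 684, 911 and 709, with a spread inside each group larger than the difference between them (-0.05 ± 0.16, limma adjusted p = 0.91; 95% interval -0.38 to 0.29). The next (1426918_at) read 474, 313 and 470.1 against 499.6, 459.6 and 487. Itgb4, the other partner of the Itga6 product, had 1 probe set with signals of 16.1 to 67.7 without and 7.8 to 40.6 in pregnancy, too dim to be tested.

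Itga3, a laminin receptor subunit of epithelia, read 272, 347 and 344 against 371, 291.5 and 410.1 (0.14 ± 0.16, limma adjusted p = 0.65). Itga7, the laminin receptor subunit of muscle, read 136, 92.1 and 71.9 against 70.3, 71.4 and 43.2. Its groups did not overlap by a narrow margin, and it was not called (-0.56 ± 0.30, limma adjusted p = 0.30). Of the 5 tested probe sets of Itga3, Itga6 and Itga7, 2 were thus called, beside 9.57% of all probe sets tested. Both measure Itga6, so the count rests on 1 of 3 tested genes.

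**Figure D3:**
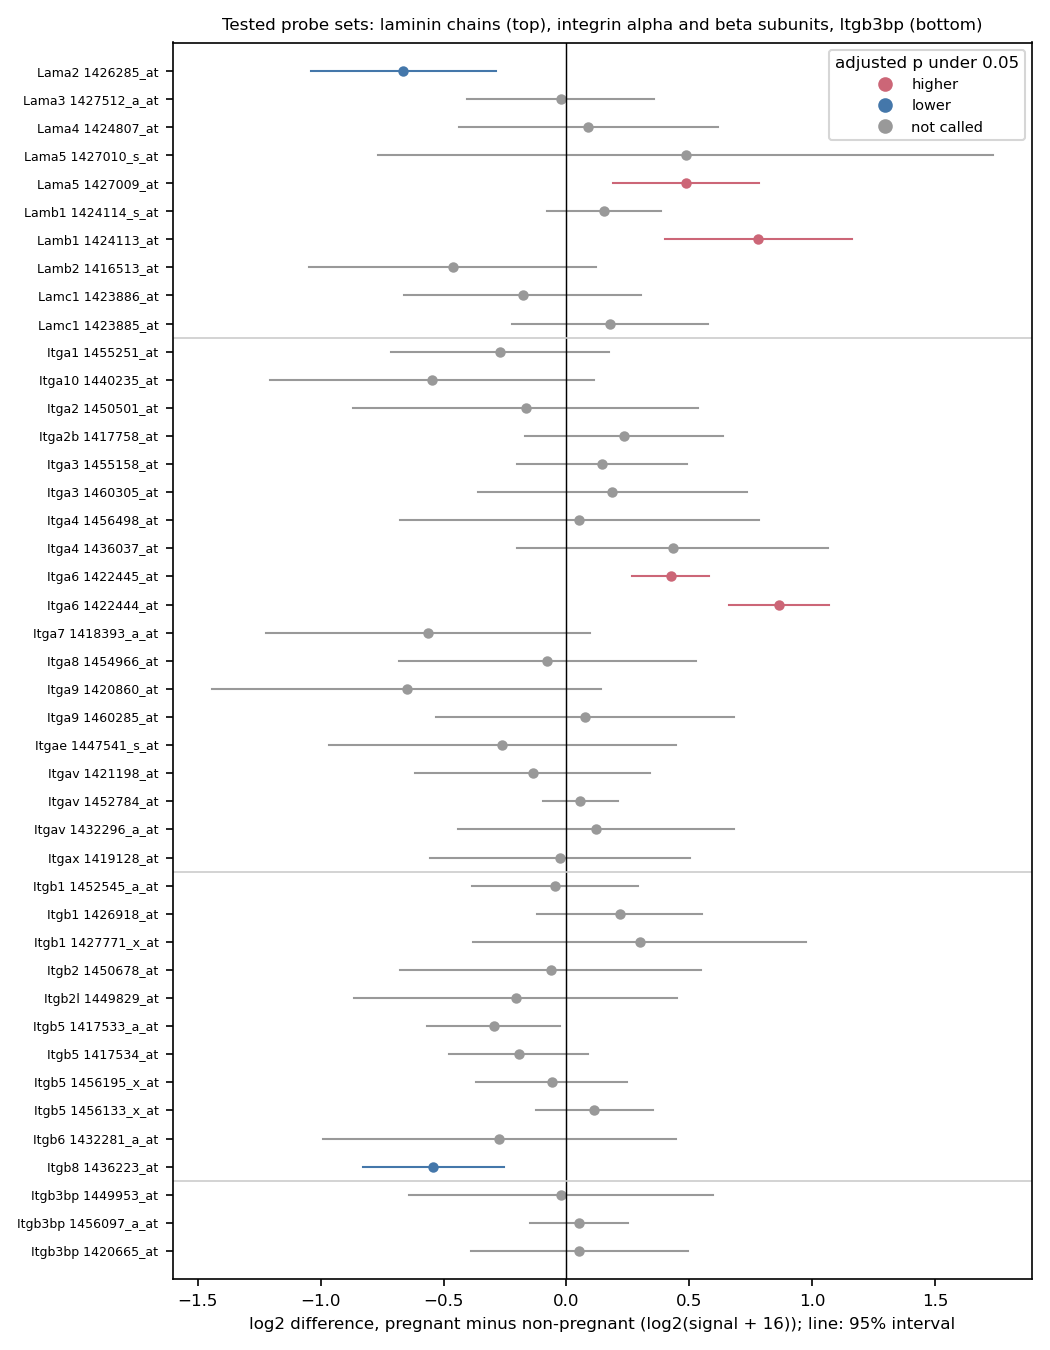
Log2 difference (horizontal axis, pregnant minus non-pregnant, of log2(signal + 16)) with its 95% interval for each of the 43 tested member probe sets (vertical axis, by gene and probe set), grouped into laminin chains, integrin alpha subunits, integrin beta subunits and Itgb3bp. Red is higher, blue lower and grey not called, and the uncalled values run from -0.65 to 0.48.

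Itgb8 was the 1 integrin beta gene with a call. Its product pairs with that of Itgav, binds the latent form of TGF-beta and helps to activate it. The probe set read 1002, 875 and 1178 without pregnancy and 608, 814 and 662 in pregnancy. Every pregnant array was lower than every non-pregnant one, with pregnant replicate 2 nearest to the non-pregnant group. The mean went from 1018 ± 152 to 695 ± 107, a ratio of 0.682. On the log2 scale the difference was -0.54 ± 0.13 (limma adjusted p = 0.022). The call was lost without non-pregnant replicate 1 (adjusted p = 0.052), non-pregnant replicate 3 (0.083), pregnant replicate 1 (0.10) or pregnant replicate 3 (0.072), and with median centring (0.072). With the acinar covariate the difference was -0.27 ± 0.21 (adjusted p = 0.63).

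The other subunits that read the RGD peptide of fibronectin, vitronectin and latent TGF-beta were not called. Itgav, the alpha partner of Itgb8, Itgb5, Itgb6 and Itgb3 products, read 4695, 5354 and 4846 against 4942, 5533 and 5017.5 in its brightest probe set. These groups overlapped almost fully (0.06 ± 0.07, limma adjusted p = 0.69), and the 95% interval of -0.10 to 0.21 is among the narrowest of the members. Itgb5, a vitronectin receptor subunit, had 4 tested probe sets that differed in sign. Its 1417533_a_at read 745, 889.8 and 928 against 801, 689 and 594.5 (-0.30 ± 0.12, limma adjusted p = 0.18; unadjusted 0.035), and 1417534_at and 1456195_x_at had -0.19 and -0.06, but the brightest, 1456133_x_at, had 0.11 ± 0.11. Itga2b, the platelet subunit, read 172, 167 and 125 against 192, 183 and 175, without overlap and without a call (limma adjusted p = 0.51). Itga8 and Itgb6 had 1 tested probe set each, also uncalled. Itga5, the fibronectin receptor subunit, and Itgb3 were too dim to be tested, with signals of 4.1 to 68.6 and 2.9 to 22.6 over all their probe sets.

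Collagen receptor subunits Itga1, Itga2 and Itga10 had 1 tested probe set each, and 0 were called in limma, beside 9.57% of all probe sets tested. Their unadjusted limma p-values were 0.096 to 0.61. Itga1 read 128, 149.5 and 163 against 135, 116 and 106, and the 3 log2 differences lay between -0.55 and -0.17. Of 9 genes for leukocyte integrins and the related Itga4 and Itga9, 6 had a tested probe set. These were Itga4, Itga9, Itgae, Itgax, Itgb2 and Itgb2l, with 0 calls among 8 probe sets in limma, beside 9.57% of all. Their unadjusted limma p-values were all above 0.05, where 22.9% of all probe sets were under it. At such shares, 0 calls among so few probe sets does not show that these genes were unchanged. Itgal, Itgam and Itgb7 were not tested. Itgb2, the beta subunit common to leukocyte integrins, read 78, 66.6 and 81.6 against 67.9, 55.3 and 94.9, which is near the floor of what was tested. The leukocyte marker list likewise had 0 calls among 11 tested genes in limma, beside 11.9% of all genes. Unadjusted limma p was under 0.05 for 2 of them, Csf1r and Tyrobp. Itgb3bp had 3 tested probe sets, and its brightest read 857, 762 and 794 against 845, 803 and 851, with no call.

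Thus 37 of the 43 tested probe sets were not called, 17 with positive and 20 with negative differences, from -0.65 to 0.48. Their standard errors ran from 0.07 to 0.57, so a change of the size seen for Itga6 could go uncalled in the dimmer ones. The 38 untested probe sets gave signals of 0.5 to 96.5, and in 11 of them every array was within the range of the bacterial control. Itga5, Itgal, Itgam, Itgb3, Itgb4, Itgb7, Lama1, Lamb3 and Lamc3, 9 genes in all, had no tested probe set.

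Other genes of the pathway came from 3 lists. Of 21 tested genes for basement membrane partners and laminin-binding proteins, 0 rose and 1 fell, where 11.9% of all 12914 genes tested were called, 6.1% higher and 5.79% lower. The median of the list was -0.18, against -0.036 over all genes. Sdc4, a cell surface proteoglycan of adhesion sites, read 2168, 2277 and 2429 against 1758, 1940 and 1665 (-0.36 ± 0.08, limma adjusted p = 0.015), and the adjusted p was 0.055 to 0.065 without non-pregnant replicate 3, pregnant replicate 1 or pregnant replicate 3. Next in order of p, and not called, were the matrix protein Fras1 (-0.52 ± 0.16), the laminin receptor Bcam (-0.70 ± 0.26) and the collagen-binding protein Sparc (-0.23 ± 0.09), with limma adjusted p-values of 0.073 to 0.13.

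Among 14 other integrin ligands and counter-receptors, 1 rose and 1 fell, beside 6.1% of all genes higher and 5.79% lower. Vtn, the ligand of the Itgav integrins vitronectin, fell from 652, 859 and 738 to 330.3, 327 and 313 (-1.17 ± 0.12, limma adjusted p = 1.0e-04). The 3 pregnant arrays lay close together and well below the lowest non-pregnant array. Emilin1, an elastic fibre protein that Itga9 and Itga4 integrins bind, rose from 1862, 1288 and 1407.5 to 2682, 2720 and 2332 (0.77 ± 0.12, limma adjusted p = 0.0017). Both calls held with any 1 array left out, with adjusted p-values up to 0.0010 for Vtn and 0.014 for Emilin1, and with the acinar covariate, but without the variance trend Emilin1 did not pass (0.069). The matrix proteins Postn (-0.50 ± 0.16) and Thbs1 (-0.42 ± 0.14) were not called (limma adjusted p = 0.074 and 0.077), although Thbs1 was without pregnant replicate 3 (0.034).

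In the list of integrin linkers and partners, 0 of 28 tested genes rose and 4 fell, beside 6.1% and 5.79% of all genes. The median of the list was -0.13, against -0.036 over all genes. Cd9, Cd81 and Cd151 are tetraspanins, membrane proteins that sit beside integrins, and the Cd151 product binds laminin-binding integrins most tightly. Cd9 read 1548, 1573.5 and 1609.8 against 573, 932 and 822 (-1.04 ± 0.14, limma adjusted p = 7.4e-04). Cd81 fell by 0.28 ± 0.06 and Cd151 by 0.32 ± 0.07 (limma adjusted p = 0.011 and 0.014), with adjusted p-values of 0.064 for Cd81 without pregnant replicate 1 and 0.063 for Cd151 without pregnant replicate 3. Sharpin, an inhibitor of integrin activation, fell by 0.43 ± 0.11 (limma adjusted p = 0.031), and its adjusted p was 0.066 to 0.11 with any 1 array left out other than pregnant replicate 1. With each array centred on its median, Cd81, Cd151, Sharpin and Sdc4 did not pass, while Cd9 did (adjusted p = 0.0012). Cd9 did not pass with the acinar covariate (0.11) or without the variance trend (0.050).

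**Figure D4:**
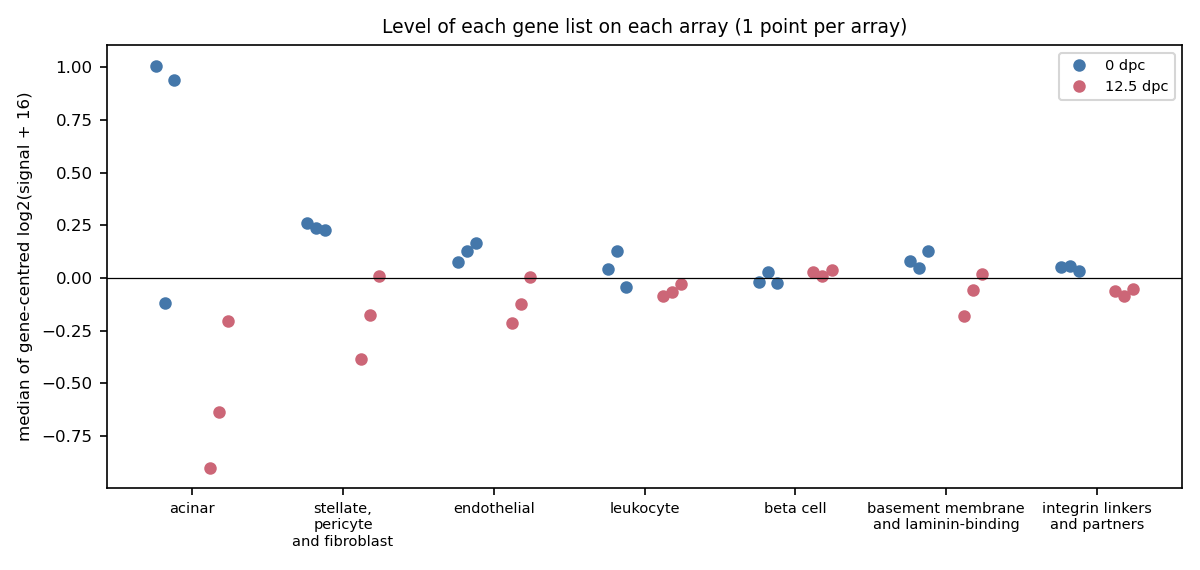
Level of 7 gene lists on each array: vertical axis, the median over a list's tested genes of log2(signal + 16) after centring each gene on its mean over the 6 arrays; horizontal axis, the list; blue points are the 3 non-pregnant and red points the 3 pregnant arrays. The acinar list runs from -0.90 to 1.01 and the list of integrin linkers from -0.09 to 0.06. In these and in the stellate, endothelial and basement membrane lists every pregnant array is below every non-pregnant one. In the leukocyte and beta cell lists the groups overlap.

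Markers of the cells that make or carry these proteins moved as follows. Endothelial markers had 2 of 17 tested genes lower (Ptprb and the VEGF receptor Flt1) and 0 higher, beside 5.79% and 6.1% of all genes. Their median log2 difference was -0.19, and their summed signal was 13390 to 14262 without and 11289 to 12799 in pregnancy. Of these cell type lists, the endothelial, acinar and beta cell ones had 0 members within the range of the bacterial control on every array, the stellate list had 1 (Mfap4) and the leukocyte list 2 (Cd3e and Cd3d). The summed endothelial, stellate and acinar markers were each lower on the pregnant arrays. These sums differ by the same group contrast as the calls of Itga6, Lama5, Lamb1, Lama2 and Itgb8. The part of endothelial cells in these results was not tested. In the short duct list 1 of 4 tested genes rose and 1 fell, beside 6.1% and 5.79% of all genes. Epcam, an epithelial adhesion molecule, rose by 0.39 ± 0.06 (limma adjusted p = 0.0011). Krt7 fell by 0.27 ± 0.06 (limma adjusted p = 0.016), and Krt19 (0.83 ± 0.41) and Sox9 (-0.12 ± 0.31) were not called. Which cells carried each transcript was not measured.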

How the data were processed

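Gene expression was measured on 6 arrays of mouse islets. The deposited intensities, 1 linear signal per probe set and array, are MAS5 signals per the submitters' processing notes; version and settings are not given in the sources here, and detection calls were not used. The 64 AFFX control probe sets were left out. Values were taken as log2(signal + 16) with no further normalization, and the top 60% of probe sets by mean over all arrays (27022, signals above about 50.5) were tested. Names came from the platform annotation, which gave 34958 probe sets 1 symbol, 932 several and 9211 none here. All 81 members were found by Entrez identifier in RefSeq, with 0 symbols changed.

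Differences between groups were tested in R 4.3.3 with limma 3.58.1 (lmFit, then eBayes with a variance trend), 2-sided, Benjamini-Hochberg adjusted over all probe sets tested, with a threshold of 0.05; errors of signals are SDs. The fit was checked on simulated data whose planted changes were all larger than the differences of the called members. That check does not show how often changes of the members' size are found. Outside the members, a gene stands for its brightest probe set. Text names every member gene, gives full values for called members and for the brightest tested probe set of each laminin chain and laminin receptor subunit, and names up to 4 genes with the smallest p of each pathway list. Members and lists were chosen with earlier results of these data known. Settings tried were pseudocounts of 1 and 64, quantile normalization, median centring, no filter, a top 40% filter, eBayes without trend or robust, array weights, the replicate block, the acinar median as a covariate, 1 mean per gene and each array left out. Figures were drawn with matplotlib 3.10.9. The number of arrays limits the precision.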

Additional observations from a re-analysis of the deposited data

How the results depend on the processing

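Of the 4 member probe sets that rose and the 2 that fell, the counts were 1 and 0 without the variance trend, 0 and 0 with the acinar covariate, and 4 and 0 with median centring. With no filter 3 rose and 1 fell, Lama5 and Lama2 being lost, and with 1 mean value per gene 2 genes rose and 2 fell. With 1 array left out, 2 to 4 rose and 0 to 2 fell. Of the 1 pathway gene that rose and the 6 that fell, 0 and 1 passed without the trend, 1 fell with the acinar covariate and 2 with median centring; with 1 array left out, 1 rose and 4 to 7 fell. Over all probe sets tested, 1294 rose and 1293 fell, but 1430 and 583 with median centring, 393 and 210 without the trend, and 366 and 177 with the acinar covariate. Median centring moved the median of all tested probe sets from -0.045 to 0.031. The causes were not tested. No paired origin of same-numbered arrays is stated, and their deviations correlated at -0.07 to 0.03. With the replicate block 4 member probe sets rose and 2 fell. It changed the call of none of the 31 probe sets whose differences were followed across the settings. Other differences given here, such as those of Dcn, Epcam and Pcsk1, were not among these 31.

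The differences that changed sign were all uncalled. The brightest Itgb1 probe set had 0.030 with median centring, 0.16 with 1 mean per gene and -0.23 to 0.067 with 1 array left out. Lama3 had 0.052 with quantile normalization, 0.051 with median centring, 0.070 with the acinar covariate and -0.070 to 0.058 with 1 array left out. Lama4 had -0.18 to 0.29 with 1 array left out, Lamc1 -0.0013 with 1 mean per gene, and Itgav -0.084 with the acinar covariate. Itgb5 1456133_x_at had -0.11 with 1 mean per gene, and 1456195_x_at had 0.015 with median centring, 0.13 with the acinar covariate and -0.15 to 0.12 with 1 array left out. Dim signals limit what can be said of the 38 untested probe sets.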
